A study of Mus musculus with 27 samples.

Results

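Aquaporins are membrane channels that let water cross the lipid bilayer, and a subset of them, the aquaglyceroporins, also pass glycerol. In the large intestine the surface epithelium takes up salt, and water follows through the epithelial cells and the junctions between them. Foxa1 and Foxa2 are forkhead transcription factors of the gut epithelium. The 5 aquaporin genes described here are Aqp1, Aqp3, Aqp4, Aqp8 and Aqp11, out of 35975 mouse genes with estimated counts. They were chosen by name as water channel genes of the colon, with earlier results of these data known. The annotation holds 7 further aquaporin genes, so the family counts 12.

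Levels were measured by poly(A) RNA sequencing of 1 cm pieces of adult mouse colon, 27 libraries from 14 mice of mixed background. The deficient group was 7 mice carrying Villin1-Cre, a recombinase driven in the intestinal epithelium, with both alleles of Foxa1 and both of Foxa2 flanked by lox sites (Villin1-Cre; Foxa1lox/lox; Foxa2lox/lox). The control group was also 7 mice. Of these, 5 carried the lox alleles without Cre (Foxa1lox/lox; Foxa2lox/lox), replicate 1 was Villin1-Cre; Foxa1lox/wt; Foxa2lox/wt, and replicate 6 was Villin1-Cre; Foxa1lox/lox; Foxa2lox/wt, so every control mouse carried lox alleles too. Proximal colon gave 7 deficient and 7 control libraries, and distal colon gave 7 deficient and 6 control libraries. Deficient mice were 9 to 13 months old, and replicates 5 and 7 among them carried the label female. The controls, all labelled male, were 9 to 18 months old, 3 of them 18 months.

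The libraries held 18472867 to 56744113 estimated counts. Levels are given as CPM, counts over TMM-scaled library sizes, or as TPM, which also divides by transcript length. TPM is used where aquaporin genes are compared with each other, and summed levels of marker lists are in CPM. Foxa2 was lower in every deficient library, at 1.23 to 1.75 CPM in deficient proximal colon against 6.05 to 15.7 CPM in control proximal colon, and at 0.326 to 1.37 CPM in deficient distal colon against 15.5 to 30.4 CPM in control distal colon. Foxa1 stood at 10.1 to 14.5 CPM in deficient proximal colon and at 7.21 to 10.5 CPM in deficient distal colon. In the controls other than replicate 6 it stood at 50.9 to 69.4 CPM in proximal and 42.4 to 80.8 CPM in distal colon. Control replicate 6, whose genotype has no wild-type Foxa1 allele, had 13.9 CPM of Foxa1 in proximal and 7.6 CPM in distal colon, within or near the deficient range. Deficient replicate 3 was labelled male, but the Y-linked gene Ddx3y had 0.0216 CPM in its proximal and 0.61 CPM in its distal library, near the levels in the mice labelled female and far below the 33.3 CPM or more of all other mice. General epithelial markers (10 genes such as Epcam and Vil1) were high in all groups, with summed levels of 11761 to 16334 CPM in deficient against 10804 to 16431 CPM in control proximal colon. In distal colon they summed to 11805 to 20136 CPM in deficient against 14863 to 22615 CPM in control mice. RNA came from the whole wall of the colon, so fewer cells of a type and less RNA per cell cannot be told apart in any value below.

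The promoters of Aqp3, the member that was higher in deficient mice of both segments, and of Aqp8, the most abundant member, are shown because the deleted genes encode transcription factors. Each is the 250 bases before the transcript start, written in the direction of the gene, from RefSeq on the GRCm38.p6 build. The Aqp3 stretch is chr4:41098184-41098433 on the minus strand, and the Aqp8 stretch is chr7:123462044-123462293 on the plus strand. Capitals mark a TATAAA word.
Aqp3: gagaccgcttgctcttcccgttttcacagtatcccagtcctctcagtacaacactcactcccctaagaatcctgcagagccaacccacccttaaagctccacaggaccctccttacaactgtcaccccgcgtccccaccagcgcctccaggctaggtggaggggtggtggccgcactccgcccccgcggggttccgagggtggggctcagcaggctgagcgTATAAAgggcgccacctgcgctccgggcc
Aqp8: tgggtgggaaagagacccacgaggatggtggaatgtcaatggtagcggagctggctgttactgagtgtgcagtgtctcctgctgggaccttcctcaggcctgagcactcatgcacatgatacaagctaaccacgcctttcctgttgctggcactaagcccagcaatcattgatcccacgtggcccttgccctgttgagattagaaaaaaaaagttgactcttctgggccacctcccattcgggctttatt

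The RefSeq table of promoters held no entry for Aqp4, so its promoter was not searched. Promoters of Aqp1, Aqp3, Aqp8 and Aqp11 were found in that table by symbol and searched on both strands. None of these 4 stretches held a forkhead word, searched as TGTTTAC (found in 3.17% of 32851 mouse promoters of the same length), as TATTTAC (2.73%), as TGTTTGC (4.3%) or as TATTGAC (1.28%). At least 1 of these words occurs in 10.8% of those promoters. They also held no AGATAA, present in 9.99% of promoters, and no CAAAGTC, present in 3.84%. The TATAAA of Aqp3 lies 29 to 24 bases before the start on the strand of the gene, and that word occurs in 12.4% of promoters. These are letters in a window and say nothing about binding of any factor. On GRCm38, the annotation places Aqp1 at chromosome 6, 55336432 to 55348555, plus strand, and Aqp3 at chromosome 4, 41092722 to 41098183, minus strand. It places Aqp8 at chromosome 7, 123462291 to 123468004, plus strand, and Aqp11 at chromosome 7, 97724006 to 97738289, minus strand. All are protein-coding, and the values below are sums over the transcripts of a gene.

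Aqp8, a water channel of the apical side of absorptive surface cells, made up most of the aquaporin RNA of the colon in every group. It held 87.3% ± 6.74 of the summed TPM of the 12 genes in deficient and 80.7% ± 7.77 in control proximal colon (SD, n = 7 each). In distal colon it held 98.2% ± 0.967 in deficient mice (SD, n = 7) and 91.7% ± 4.98 in control mice (SD, n = 6). In mean TPM, deficient proximal colon had 584 of Aqp8, 34.8 of Aqp1, 23.4 of Aqp11, 5.35 of Aqp3 and 1.5 of Aqp4. Control proximal colon had 380 of Aqp8, 46.5 of Aqp1, 19.5 of Aqp11, 8.83 of Aqp4 and 0.571 of Aqp3, so Aqp3 and Aqp4 stood in opposite order in the 2 genotypes. Aqp3 was above Aqp4 in 6 of 7 deficient proximal libraries, with overlapping ranges, and Aqp4 was above Aqp3 in 7 of 7 control proximal libraries, with ranges apart.

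In distal colon the place of Aqp4 in the order differed between the genotypes. Deficient distal colon had 1501 TPM of Aqp8, 10.4 of Aqp1, 5.95 of Aqp11, 4.47 of Aqp4 and 0.985 of Aqp3. Control distal colon had 1558 TPM of Aqp8, followed by Aqp4 with 116, Aqp1 with 9.32, Aqp11 with 7.54 and Aqp3 with 0.348. Aqp4 was thus the second most abundant aquaporin of control distal colon, with a lowest library of 58.4 TPM against a highest of 17 TPM for Aqp1, and it held 7.18% ± 4.53 of the summed TPM there (SD, n = 6). In deficient distal colon it held 0.385% ± 0.241 (SD, n = 7). Below Aqp8, the ranges of all neighbours in the order overlapped in deficient distal colon, Aqp1 with Aqp11, Aqp11 with Aqp4 and Aqp4 with Aqp3. In control distal colon Aqp1 and Aqp11 were the only neighbours with overlapping ranges, and Aqp1 was the higher of them in 4 of 6 libraries.

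**Figure D1:**
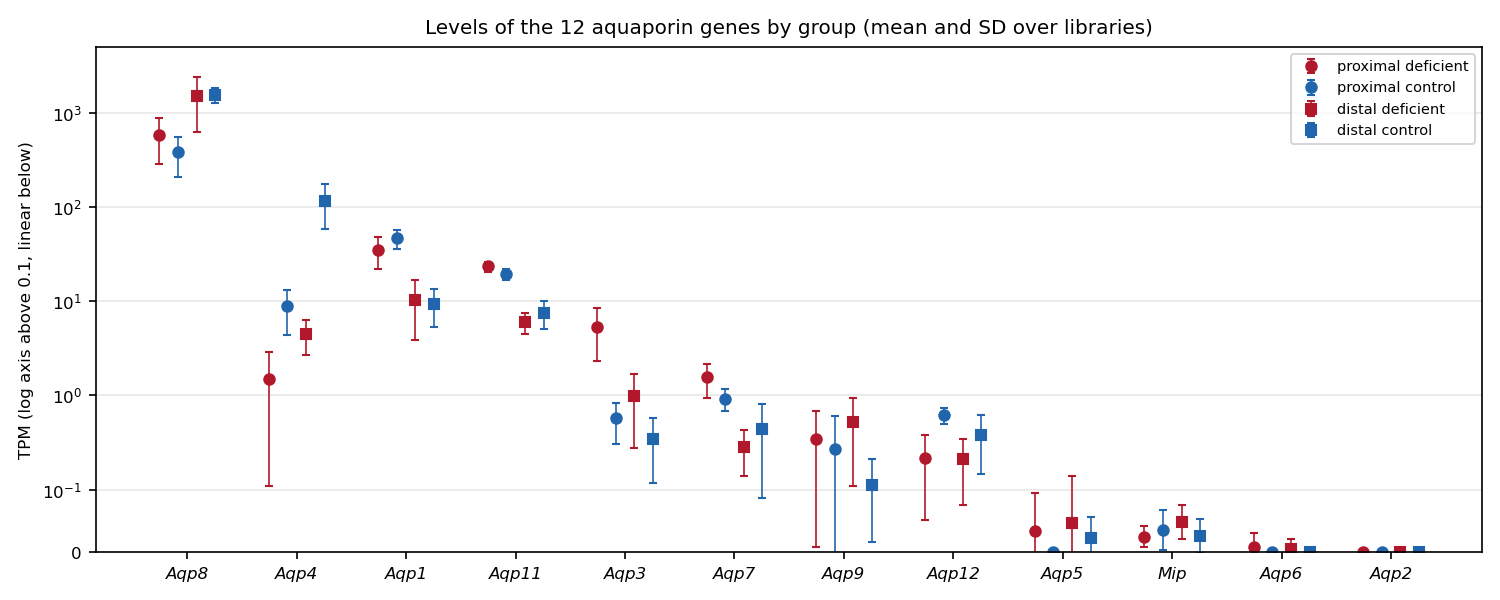
Mean TPM of the 12 aquaporin genes in deficient (red) and control (blue) mice, circles for proximal and squares for distal colon, with SD bars cut off at 0, on an axis that is logarithmic above 0.1 and linear below. Aqp8 lies above all others in every group, and Aqp4 reaches 116 TPM in control distal colon against 4.47 TPM in deficient distal colon.

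The genotype comparison asks which aquaporin genes differ in level when epithelial Foxa1 and Foxa2 are deleted. In proximal colon Aqp3 rose and Aqp4 fell in deficient mice, and Aqp1, Aqp8 and Aqp11 did not pass the threshold, an adjusted p under 0.05 in edgeR's quasi-likelihood test. In distal colon Aqp4 fell and Aqp3 rose, and the other 3 again did not pass. That is 2 of 5 members in each segment, where 11.7% of the 16787 genes tested passed in proximal colon and 6.07% of the 16041 tested in distal colon. Because the members were chosen with earlier results of these data known, these shares are no test of the family. The same shares of all genes stand beside each count of listed genes between genotypes below.

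**Figure D2:**
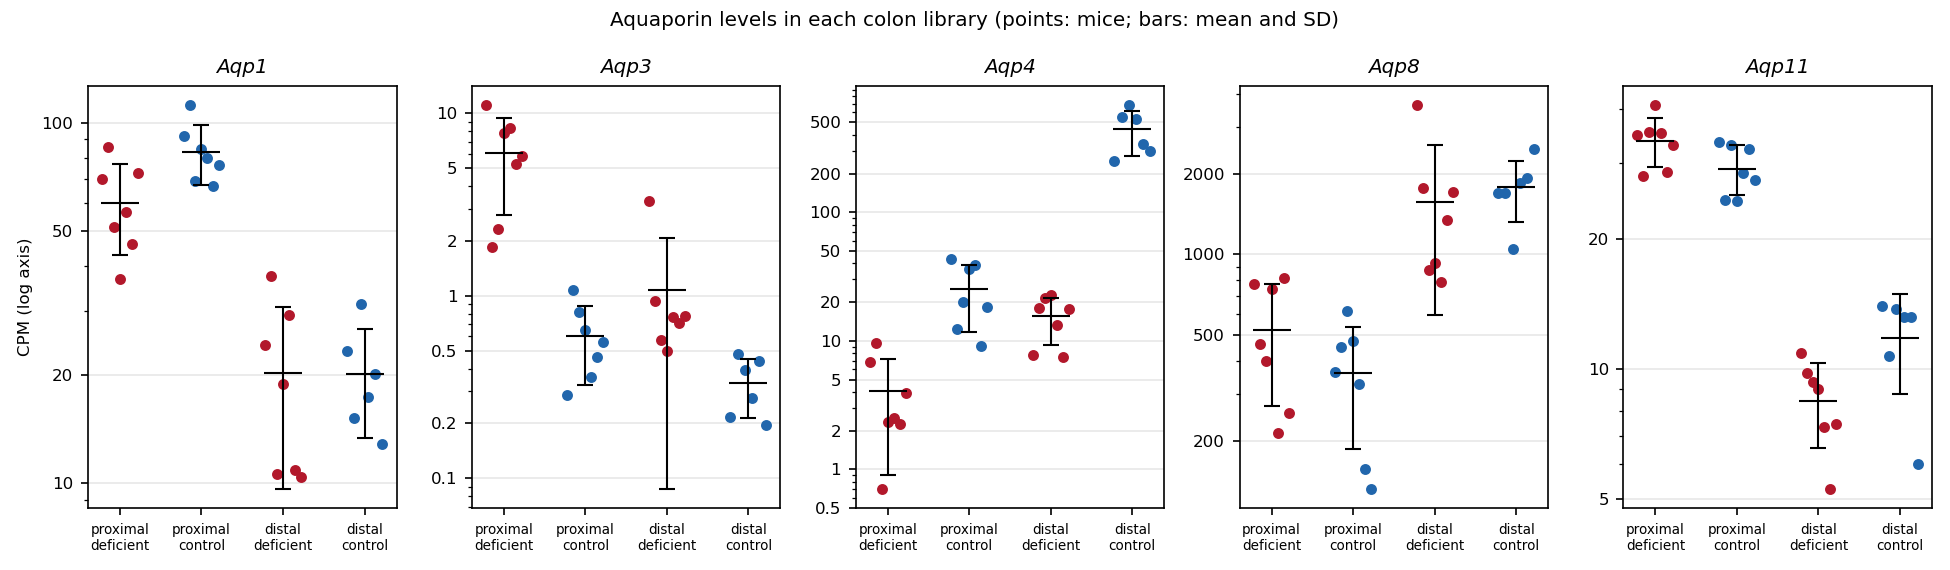
CPM of each member in each library on logarithmic axes, 1 panel per gene, with deficient libraries in red and control libraries in blue and bars for mean and SD. The 7 distal deficient libraries lie at 7.44 to 22.6 CPM of Aqp4, below all 6 distal controls at 250 to 681 CPM, and the 7 proximal deficient libraries lie at 1.85 to 11.1 CPM of Aqp3, above all controls.

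Aqp4 encodes a water channel of the basolateral membrane of colonic surface cells, also known from glia. The gene lies on chromosome 18 at 15389496 to 15410982, minus strand, and the antisense gene AC133525.2 overlaps it. The sources used here do not say whether the authors' quantification used strand, so reads of the pair could mix. The transcript Aqp4-201 held 96.9% of the estimated counts of the gene over all libraries. In distal colon Aqp4 had 7.44 CPM in the lowest, 17.7 in the median and 22.6 in the highest deficient library, against 250, 437 and 681 CPM in the lowest, median and highest control library. All 7 deficient libraries were below all 6 controls. Aqp4 averaged 15.5 ± 6.18 CPM in deficient mice (SD, n = 7) and 443 ± 170 CPM in control mice (SD, n = 6). The log2 fold change was -4.84 (SE 0.35, adjusted p = 2.5e-06), and it ran from -5.09 to -4.66 over 22 alternative settings, past the threshold in all of them.

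In proximal colon, where Aqp4 was less abundant, the lowest, median and highest deficient libraries had 0.702, 2.5 and 9.67 CPM, against 9.05, 19.9 and 43.2 CPM in the controls. In this segment 6 of 7 deficient libraries were below the lowest control, and deficient replicate 2, at 9.67 CPM, was just above control replicate 6, at 9.05 CPM. Means were 4.04 ± 3.15 CPM in deficient mice and 25.4 ± 13.7 CPM in control mice (SD, n = 7 each), a log2 fold change of -2.62 (SE 0.49, adjusted p = 0.00181). The fall passed in all 23 alternatives, with values from -3.02 to -2.22.

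Control replicate 6 kept 1 wild-type Foxa2 allele and no wild-type Foxa1 allele, and control replicate 1 kept 1 wild-type allele of each. These 2 mice had the lowest Aqp4 of the distal controls, 302 CPM in replicate 6 and 250 CPM in replicate 1, where the 4 without Cre had 341 to 681 CPM. Replicate 6 was also 1 of the 2 distal controls of 18 months, which had 302 and 341 CPM. The 4 younger distal controls had 250 to 681 CPM. The part of age or of the alleles in these levels was not tested. In proximal colon replicate 6 had the lowest level of the controls, 9.05 CPM, and replicate 1 the highest, 43.2 CPM. With only the controls without Cre, the log2 fold change of Aqp4 was -5.09 in distal and -2.61 in proximal colon, both past the threshold. Summed levels of 10 enteric neuron and glia markers were 14.2 to 31.8 CPM in deficient against 18.5 to 34.4 CPM in control distal colon, and 0 of the 10 passed with edgeR in either segment (at an unadjusted p under 0.05, 2 in distal and 0 in proximal colon, and with DESeq2 1 and 0). Of 10 absorptive colonocyte markers, 2 fell and 0 rose in distal colon, where 3.37% of all genes tested fell and 2.7% rose. The markers summed to 4359 to 10763 CPM in deficient against 7745 to 16159 CPM in control mice there, with no marker at 0. In proximal colon 3 of these 10 fell and 4 rose, where 6.17% of all genes tested fell and 5.52% rose. The part of these markers in the fall of Aqp4 was not tested.

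Aqp3, a basolateral aquaglyceroporin that passes water and glycerol, moved the other way. In proximal colon the lowest, median and highest deficient libraries had 1.85, 5.87 and 11.1 CPM, against 0.286, 0.562 and 1.08 CPM in the control libraries. All 7 deficient libraries were above all 7 controls. Mean levels were 6.09 ± 3.32 CPM in deficient and 0.602 ± 0.276 CPM in control mice (SD, n = 7 each), 10.1 times as high. The log2 fold change was 3.33 (SE 0.41, adjusted p = 4.24e-05), and it lay between 3.04 and 3.53 over 23 alternatives, all past the threshold.

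In distal colon Aqp3 was near the lower limit of what was tested, with 12 to 107 estimated counts per deficient and 5 to 25 per control library. The deficient libraries had 0.498 CPM at the lowest, 0.763 in the median and 3.31 at the highest, against 0.196, 0.334 and 0.479 CPM in the controls. The groups did not overlap, but the highest deficient library, replicate 1, stood far above the other 6, which were all below 1 CPM. The log2 fold change of 1.67 (SE 0.46, adjusted p = 0.0459) passed in 4 of 21 alternatives, whose values ran from 1.06 to 2.00 and whose adjusted p ran from 0.0105 to 0.174. Without deficient replicate 1 it was 1.06 (SE 0.27, adjusted p = 0.0355).

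Small-intestinal enterocyte markers moved with Aqp3 in proximal colon and in part in distal colon. In proximal colon 11 of 11 tested markers of this list rose, beside 5.52% of all genes tested. The markers summed to 1006 to 3532 CPM in deficient against 323 to 627 CPM in control mice. Apoa4, an apolipoprotein of small-intestinal enterocytes, had the largest log2 fold change of them, 7.83 (SE 1.11, adjusted p = 0.00015), and the intestinal fatty acid binding protein gene Fabp2 the smallest, 1.22 (SE 0.27, adjusted p = 0.00652). In distal colon 6 of 9 tested markers rose and 0 fell, among them the amino acid transporter gene Slc6a19 with 4.21 (SE 0.55, adjusted p = 0.000347) and the aminopeptidase gene Anpep with 1.11 (SE 0.23, adjusted p = 0.00944), on the log2 scale. At an unadjusted p under 0.05 there were 8 of 9, counted in either direction, and Apob, given below, was among them with a negative value. Of all genes tested in distal colon, 2.7% rose and 3.37% fell past the threshold. The markers of the list with the highest CPM in distal controls, a unit that does not divide by transcript length, had negative values that did not pass. Fabp2 had 47.7 ± 70.4 CPM in deficient and 141 ± 116 CPM in control mice (log2 fold change -1.55, SE 0.92, adjusted p = 0.417), and the apolipoprotein gene Apob 94.9 ± 49.3 CPM in deficient and 187 ± 82.4 CPM in control mice (-0.97, SE 0.37, adjusted p = 0.163; SD, n = 7 deficient and 6 control mice). The summed level of the list overlapped there, at 168 to 527 CPM in deficient against 243 to 496 CPM in control mice. None of the 12 listed markers was at 0 in all libraries of a group, and their part in the rise of Aqp3 was not tested.

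Aqp8 did not pass the threshold between genotypes in either segment. In proximal colon it had 214 CPM in the lowest, 463 in the median and 817 in the highest deficient library, against 132, 362 and 615 CPM in the controls. The groups overlapped, although 3 of 7 deficient libraries were above the highest control. It had a log2 fold change of 0.56 (SE 0.36, 95% interval -0.15 to 1.27, adjusted p = 0.411). The 3 lowest control libraries were those of the mice of 18 months, at 132 to 326 CPM, below the 362 to 615 CPM of the 4 younger controls. The 3 lowest deficient libraries were those of replicates 3, 5 and 7, the mice labelled female or with near-absent Ddx3y, at 399, 214 and 255 CPM, below the 463 to 817 CPM of the other 4. With mice of 9 to 13 months only, the log2 fold change was 0.14 (SE 0.34, adjusted p = 0.903). With mice labelled male it was 0.84 (SE 0.34, adjusted p = 0.144), and without deficient replicates 3, 5 and 7 it was 0.98 (SE 0.35, adjusted p = 0.118).

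In distal colon Aqp8 had 788, 1349 and 3624 CPM in the lowest, median and highest deficient library, against 1047, 1770 and 2482 CPM in the controls. Deficient libraries lay on both sides of the control range, 3 below it and 1 above it. The log2 fold change was -0.17 (SE 0.33, 95% interval -0.81 to 0.48, adjusted p = 0.843), and 0 of 22 alternatives passed. The 2 distal controls of 18 months had the highest levels of their group, 1928 and 2482 CPM. The interval leaves room for a change of Aqp8 of either sign in distal colon.

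Of the 3 annotated transcripts of Aqp8, Aqp8-201 took most of the estimated counts. Its share was 76.2% ± 1.64 in deficient and 77.9% ± 2.11 in control proximal colon (SD, n = 7 each; exact two-sided permutation test, p = 0.135, adjusted p = 0.219 over 4 tests of Aqp8 and Aqp11). In distal colon it was 70.3% ± 0.976 in deficient (n = 7) and 71.6% ± 0.693 in control mice (n = 6), a difference of -1.32 percentage points (exact permutation p = 0.0175, adjusted p = 0.0699). The share of Aqp11-205 in the counts of Aqp11 was 78.8% ± 5.35 in deficient and 79.3% ± 3.95 in control proximal colon, and 71.3% ± 3.92 in deficient and 74.3% ± 3.36 in control distal colon. None of these 4 comparisons passed after adjustment.

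Aqp1 is a water channel of endothelium and red blood cells. In proximal colon it had 36.9, 56.7 and 85.5 CPM in the lowest, median and highest deficient library, against 66.7, 80 and 112 CPM in the controls. The ranges overlapped, with 4 of 7 deficient libraries below the lowest control and 6 of 7 below the control mean. The log2 fold change was -0.45 (SE 0.17, 95% interval -0.79 to -0.12, adjusted p = 0.103) and did not pass. It passed with DESeq2 (-0.46, adjusted p = 0.0486) and without deficient replicate 2 (-0.58, adjusted p = 0.0258), the deficient mouse with the highest level.

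In distal colon Aqp1 averaged 20.3 ± 10.7 CPM in deficient (SD, n = 7) and 20 ± 6.71 CPM in control mice (SD, n = 6), from 10.4 to 37.7 CPM in deficient and from 12.8 to 31.5 CPM in control libraries. Its log2 fold change was 0.03 (SE 0.33, 95% interval -0.61 to 0.68, adjusted p = 0.975). Summed levels of 10 blood endothelium markers were 90.4 to 129 CPM in deficient against 78.6 to 132 CPM in control proximal colon, and 43.3 to 153 CPM in deficient against 64 to 108 CPM in control distal colon, with 0 of 10 past the threshold with edgeR in either segment (at an unadjusted p under 0.05, 2 in proximal and 0 in distal colon, and with DESeq2 1 and 0). Summed red blood cell markers ran from 45.8 to 147 CPM in deficient and from 36.4 to 121 CPM in control proximal colon. In distal colon they ran from 5.86 to 89.1 CPM in deficient and from 44.3 to 748 CPM in control mice. There 0 of 5 passed with edgeR, while 5 of 5 had an unadjusted p under 0.05 and 5 of 5 passed with DESeq2, with a median log2 fold change of -2.45, and their part in the distal values of Aqp1 was not tested.

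Aqp11, an unorthodox aquaporin located on intracellular membranes, did not pass in either segment. In proximal colon it had 28, 34.8 and 40.9 CPM in the lowest, median and highest deficient library, against 24.5, 28.5 and 33.6 CPM in the controls. Of the deficient libraries 4 of 7 were above the highest control, but the groups overlapped, and the log2 fold change of 0.23 (SE 0.10, 95% interval 0.03 to 0.42, adjusted p = 0.178) did not pass. In distal colon it had 5.26, 8.98 and 10.9 CPM in the lowest, median and highest deficient library, against 6.02, 13.2 and 14 CPM in the controls. Control replicate 6 was the low control, at 6.02 CPM, and the other 5 controls had 10.7 to 14 CPM. With all mice the log2 fold change was -0.48 (SE 0.20, 95% interval -0.88 to -0.08, adjusted p = 0.223), and it was -0.62 (SE 0.16, adjusted p = 0.0392) without control replicate 6.

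**Figure D3:**
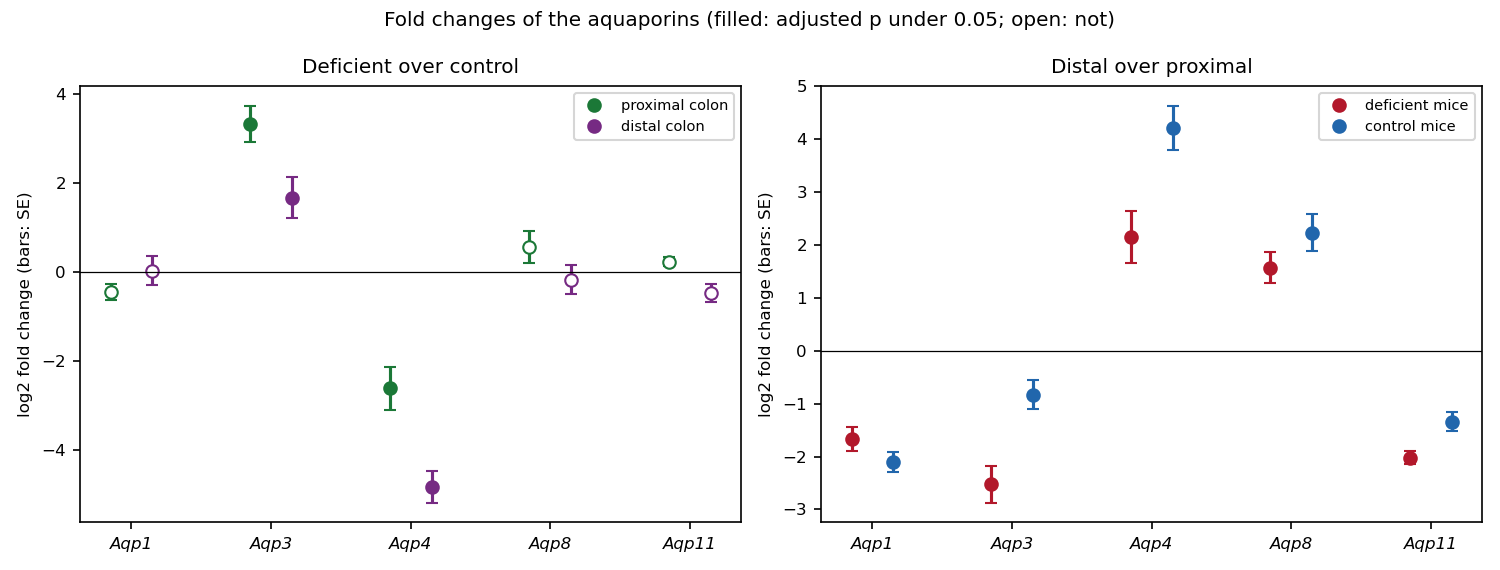
Log2 fold changes with SE of the 5 members, deficient over control on the left (proximal green, distal purple) and distal over proximal on the right (deficient red, control blue), filled where the adjusted p is under 0.05. Aqp3 at 3.33 in proximal and 1.67 in distal colon and Aqp4 at -2.62 in proximal and -4.84 in distal colon are the filled genotype values, while all 5 members are filled for the segments in both genotypes.

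Whether the genotype effect itself differed between the segments was tested over 26 libraries of the 13 mice with both segments. With edgeR 178 of 17595 genes tested passed, 1.01%, and no member was among them. Of the 5 members, 3 had an unadjusted p under 0.05, and Aqp3 passed with DESeq2. The difference of log2 fold changes, distal minus proximal, was -2.08 for Aqp4 (SE 0.69, 95% interval -3.44 to -0.72, adjusted p = 0.223) and -1.69 for Aqp3 (SE 0.48, 95% interval -2.64 to -0.74, adjusted p = 0.135). Aqp11 had -0.68 (SE 0.22, 95% interval -1.12 to -0.24, adjusted p = 0.217), and without control replicate 6 it had -0.88 (adjusted p = 0.0171). For Aqp3 the difference was -1.95 without deficient replicate 2 (adjusted p = 0.041) and -1.71 with DESeq2 (adjusted p = 0.024). Aqp8 with -0.65 (adjusted p = 0.636) and Aqp1 with 0.44 (adjusted p = 0.638) had intervals that included 0.

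Along the colon the members fell into 2 patterns, tested within mice. Aqp4 and Aqp8 were higher in distal than in proximal colon, and Aqp1, Aqp3 and Aqp11 were lower, and all 5 passed in both genotypes. Such calls were common, at 45.1% of 16514 genes tested in deficient and 43.8% of 16507 in control mice. The directions held mouse by mouse: Aqp4 and Aqp8 were higher in distal colon of 7 of 7 deficient and 6 of 6 control mice, and Aqp1 and Aqp11 were lower in all 13. Aqp3 was lower in distal colon of 7 of 7 deficient and 5 of 6 control mice.

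For Aqp4 the distal over proximal log2 fold change was 2.15 in deficient mice (SE 0.49, adjusted p = 0.00608) and 4.21 in control mice (SE 0.42, adjusted p = 9.2e-05). Single deficient mice ranged from 0.18 to 4.76 and control mice from 2.53 to 5.48 on the log2 scale. The highest deficient value came from replicate 3, whose proximal library had 0.702 CPM of Aqp4. Without deficient replicates 3, 5 and 7, the mice labelled female or with near-absent Ddx3y, the value in deficient mice was 1.47 (SE 0.49, adjusted p = 0.0678). For Aqp8 it was 1.57 in deficient (SE 0.29, adjusted p = 0.00192) and 2.23 in control mice (SE 0.35, adjusted p = 0.00102), with single mice from 0.33 to 2.74 among deficient and from 0.77 to 3.99 among control mice.

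Aqp1 was lower in distal colon by a log2 fold change of -1.67 in deficient (SE 0.22, adjusted p = 0.000322) and -2.11 in control mice (SE 0.19, adjusted p = 5.88e-05). Of the blood endothelium markers 5 of 10 in deficient and 3 of 10 in control mice were lower in distal colon too, and 0 were higher. Of 7 smooth muscle markers 7 in deficient and 4 in control mice were lower, beside 22.4% of all genes tested in deficient and 22.3% in control mice. Among other wall cell lists, 3 of 6 fibroblast, 1 of 5 lymphatic and 4 of 5 adipocyte markers were lower in distal colon of deficient mice, and 1 of 6, 1 of 5 and 0 of 5 in control mice. Of 10 enteric neuron and glia markers, 7 in deficient and 3 in control mice were lower and 0 were higher. Of 5 mesothelium markers, 1 was lower and 1 higher in each genotype. Of 5 red blood cell markers, 4 in deficient mice were lower in distal colon, with a median log2 fold change of -1.41. In control mice 0 of 5 were lower and Hbb-bt, a beta globin gene, was higher (1.66, SE 0.51, adjusted p = 0.0263), with a median of 0.83 over the list. The genotype by segment difference itself passed for 0 of these 5 with edgeR and for 4 with DESeq2, and 5 had an unadjusted p under 0.05. The part of these cell types in the Aqp1 result was not tested. Aqp11 changed by -2.02 in deficient (SE 0.13, adjusted p = 3.64e-06) and -1.34 in control mice (SE 0.18, adjusted p = 0.000414). Of 10 general epithelial markers, 3 were higher and 1 lower in distal colon of deficient mice, and 6 were higher and 2 lower in control mice. Of all genes tested, 22.7% were higher and 22.4% lower in deficient mice, and 21.5% were higher and 22.3% lower in control mice.

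Aqp3 changed by -2.52 in deficient mice (SE 0.35, adjusted p = 0.000406), with single mice from -3.73 to -0.92, and by -0.83 in control mice (SE 0.28, adjusted p = 0.0391). The value in deficient mice passed in all 13 alternatives, from -2.79 to -2.27. In control mice it passed in 2 of 12, from -1.06 to -0.63, on 5 to 59 estimated counts per library.

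**Figure D4:**
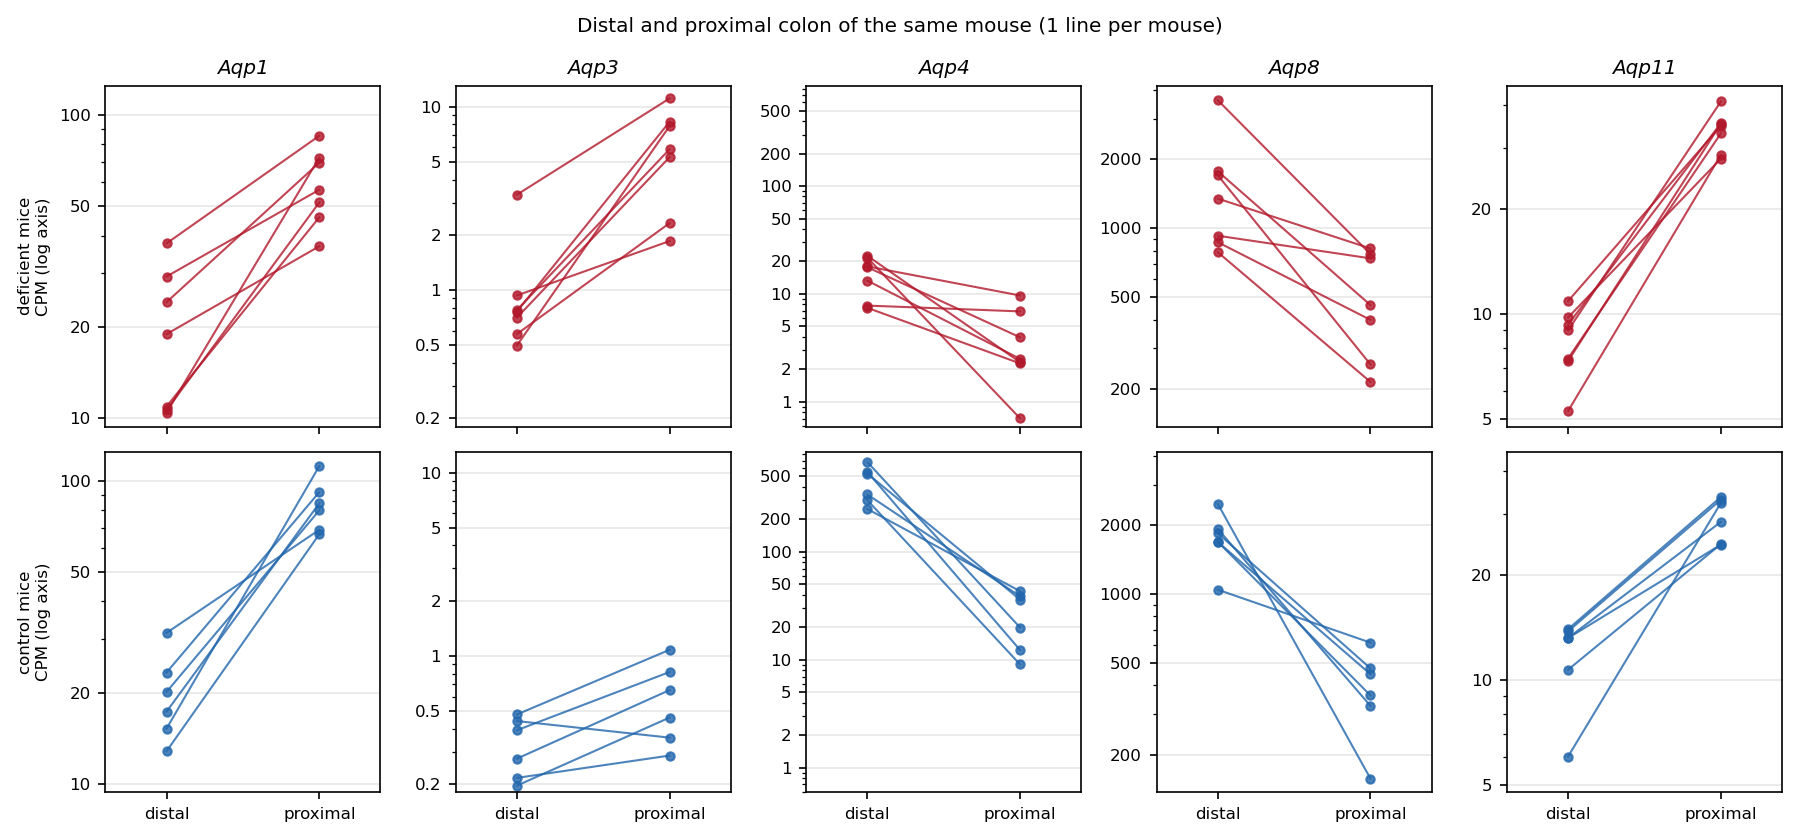
CPM in distal and proximal colon of the same mouse on logarithmic axes, 1 line per mouse, deficient mice in the upper and control mice in the lower panels. Lines for Aqp1 and Aqp11 go up towards proximal colon in all 13 mice, and lines for Aqp4 and Aqp8 go down in all 13.

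Of the 7 other aquaporin genes, Aqp7, Aqp9 and Aqp12 had enough counts to be tested in proximal colon and only Aqp7 in distal colon. Aqp12 fell in proximal colon, to 0.137 ± 0.108 CPM in deficient against 0.396 ± 0.0886 CPM in control mice (SD, n = 7 each), a log2 fold change of -1.50 (SE 0.39, adjusted p = 0.0169) on 1 to 17 estimated counts per deficient and 13 to 23 per control library. Aqp7, an aquaglyceroporin known from fat tissue, had 2.13 ± 1.04 CPM in deficient and 1.34 ± 0.351 CPM in control proximal colon (SD, n = 7 each; log2 fold change 0.69, SE 0.27, adjusted p = 0.135). In distal colon it had 0.47 ± 0.235 CPM in deficient (n = 7) and 0.763 ± 0.665 CPM in control mice (n = 6; log2 fold change -0.64, SE 0.49, adjusted p = 0.552). Summed adipocyte markers were 71 to 127 CPM in deficient against 51.4 to 317 CPM in control proximal colon. Aqp9 had 0.281 ± 0.177 CPM in deficient and 0.207 ± 0.0919 CPM in control proximal colon (SD, n = 7 each). In distal colon it had 0.651 ± 0.44 CPM in deficient (SD, n = 7) and 0.18 ± 0.0473 CPM in control mice (SD, n = 6). That difference was not tested, on 2 to 34 estimated counts per deficient and 3 to 10 per control library. Aqp2, the vasopressin-regulated channel of the kidney, had 0 counts in all 27 libraries, and Aqp5, Aqp6 and Mip stayed at 6 counts or fewer in every library.

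Lists of genes that work beside the aquaporins were counted against the same tests. Of 21 colonic salt transport genes, 20 were tested in proximal colon, where 7 fell, 2 rose and 11 did not pass. Of all genes tested there, 6.17% fell and 5.52% rose. The list had a median log2 fold change of -0.23 against 0.01 over all genes tested. Scnn1b, a subunit of the epithelial sodium channel, fell to 0.935 ± 0.354 CPM in deficient against 5.53 ± 0.674 CPM in control mice (log2 fold change -2.55, SE 0.22, adjusted p = 1.49e-06). Kcne3, a potassium channel subunit that sustains chloride secretion, had a log2 fold change of -1.52 (SE 0.15, adjusted p = 5.52e-06), and Ano1, a calcium-activated chloride channel, -0.75 (SE 0.12, adjusted p = 4e-04). In distal colon 4 of 21 fell and 0 rose, with a median of -0.37, where 3.37% of all genes tested fell and 2.7% rose. Kcne3 fell to 25.6 ± 4.65 CPM in deficient (n = 7) against 96.3 ± 26.9 CPM in control mice (n = 6), a log2 fold change of -1.91 (SE 0.18, adjusted p = 2.15e-05). Slc26a3, the chloride and bicarbonate exchanger of surface colonocytes, had -1.30 (SE 0.28, adjusted p = 0.011), and Slc26a2, a sulfate transporter, -1.22 (SE 0.27, adjusted p = 0.0125). Slc26a3 is also on the list of absorptive colonocyte markers.

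Goblet cell markers fell in part in the same libraries. In proximal colon 5 of 9 fell and 0 rose, among them the mucin gene Muc2 (-1.49, SE 0.17, adjusted p = 2.17e-05), and Spdef, a transcription factor of goblet cells (-0.93, SE 0.13, adjusted p = 0.000185). Their summed level was 3110 to 7197 CPM in deficient against 6337 to 9909 CPM in control mice. In distal colon 2 of 9 fell, Bcas1 (-1.04, SE 0.19, adjusted p = 0.00465) and Fer1l6 (-0.82, SE 0.12, adjusted p = 0.00097), and the sums were 13559 to 26512 CPM in deficient against 25610 to 35982 CPM in control mice. Of all genes tested, 6.17% fell in proximal and 3.37% in distal colon. No listed goblet cell marker was at 0 in all libraries of a group. The part of these markers in the values of the salt transport genes was not tested.

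Hormone and cyclic nucleotide control genes of salt and water showed mixed directions. In proximal colon 2 of 11 rose and 2 fell, and in distal colon 1 of 10 tested rose and 1 fell. Of all genes tested, 5.52% rose and 6.17% fell in proximal colon, and 2.7% rose and 3.37% fell in distal colon. Counts this small are no result about the list as a whole. Guca2b, which encodes uroguanylin, a peptide that activates the guanylate cyclase Gucy2c, rose in both segments. It had 82.4 ± 28.2 CPM in deficient and 25.6 ± 7.93 CPM in control proximal colon (SD, n = 7 each; log2 fold change 1.70, SE 0.23, adjusted p = 0.000107), and 49.7 ± 15 CPM in deficient (n = 7) and 13.4 ± 4.09 CPM in control distal colon (n = 6; log2 fold change 1.89, SE 0.24, adjusted p = 0.000276). Gucy2c itself fell in proximal colon (-0.38, SE 0.09, adjusted p = 0.00676), where the kinase gene Sgk1 rose (0.70, SE 0.20, adjusted p = 0.0322). Nr3c2, the mineralocorticoid receptor, fell in both segments, by log2 fold changes of -0.38 in proximal (SE 0.11, adjusted p = 0.0348) and -0.57 in distal colon (SE 0.16, adjusted p = 0.0472).

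Genes of glycerol handling were counted because Aqp3 also passes glycerol. In proximal colon 3 of 8 rose and 0 fell, with a median log2 fold change of 0.46. In distal colon 0 of 8 passed with edgeR or DESeq2 and 3 had an unadjusted p under 0.05, with a median of -0.29. Of all genes tested, 5.52% rose and 6.17% fell in proximal colon, and 6.07% passed in distal colon. Gk, glycerol kinase, had 60.5 ± 19.8 CPM in deficient and 22.2 ± 5.16 CPM in control proximal colon (SD, n = 7 each; log2 fold change 1.47, SE 0.19, adjusted p = 7.39e-05). Dgat1, an enzyme of triglyceride synthesis, had 0.75 (SE 0.09, adjusted p = 2.87e-05), and Gpd1, glycerol-3-phosphate dehydrogenase, 0.71 (SE 0.16, adjusted p = 0.00639). The effect differed between segments, distal minus proximal, for 2 of the 8, with -1.94 for Gk (SE 0.32, adjusted p = 0.00764) and -0.96 for Dgat1 (SE 0.18, adjusted p = 0.0174). Of all genes tested, 1.01% passed for this difference. The small-intestinal enterocyte markers given above for Aqp3 rose in the same libraries, and their part was not tested here either.

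Of the osmotic stress response genes, 0 of 5 tested in proximal and 0 of 6 in distal colon passed with edgeR or DESeq2. At an unadjusted p under 0.05 there were 0 in proximal and 1 in distal colon. Of all genes tested, 11.7% in proximal and 6.07% in distal colon passed with edgeR, so 0 in a list this short does not show that a response was absent.

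**Figure D5:**
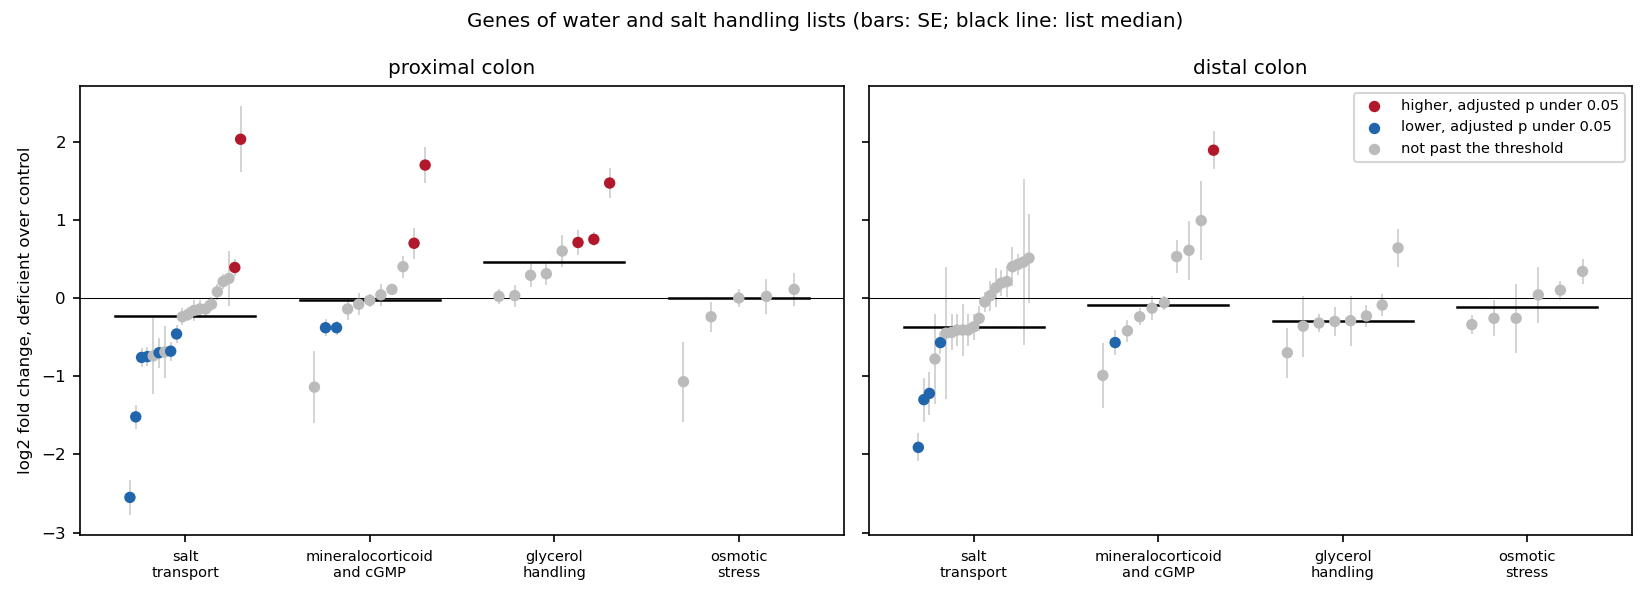
Log2 fold changes, deficient over control, of the genes of 4 lists in proximal (left) and distal (right) colon, with SE bars and a black line at each list median, red and blue where the adjusted p is under 0.05. In proximal colon 7 salt transport genes lie below 0 in blue and 3 glycerol handling genes above 0 in red.

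Over all 27 libraries, the genes whose log2 CPM followed each member most closely were read from 10727 genes as Pearson's r, a description that includes both the segment and the genotype. Aqp4 was followed by Stxbp6 (r = 0.94), Acsm3 (0.93), which encodes a mitochondrial acyl-CoA synthetase, and Appl2 (0.93). Acsm3 had mean levels of 18.6 CPM in deficient and 52.6 in control proximal colon, and 32.3 CPM in deficient and 122 in control distal colon. Aqp3 was followed by Maf (0.90), a transcription factor gene with 182 CPM in deficient and 44.4 in control proximal colon, by Anpep (0.89) and by Castor2 (0.87). Aqp8 was followed by Ifit1bl1 (0.94), Parp12 (0.91) and the interferon-induced gene Oas1g (0.91). Aqp11 was followed by Acp6 (0.96), Acaa2 (0.95), an enzyme of mitochondrial fatty acid oxidation, and Slc16a9 (0.95), and Aqp1 by Ntrk2 (0.94), Ptprs (0.94) and Pcnx (0.93).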

How the data were processed

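The members and gene lists were chosen with earlier results of these data known. Tools named in the submitters' processing notes are kallisto 0.46.2, cutadapt 2.5, bcl2fastq 2.20.0.422 and edgeR, and the build is GRCm38 (mm10). Strand setting and layout are not stated. The authors deposited estimated counts, TPM and effective lengths per transcript, and a log2 CPM matrix per segment. How that matrix was normalized is not given in the sources used. The deposited effective length was shorter than the length by 249 bases in distal and by 215 to 246 bases in proximal libraries, which bears on TPM and on segment comparisons.

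Of 119414 transcripts, 116728 matched GENCODE M21, and the rest, 0.902% to 1.27% of counts, were left out. Estimated counts were summed per gene and rounded, and deposited TPM were summed per gene. Fits used edgeR 4.0.16 in R 4.3.3 (filterByExpr, TMM, quasi-likelihood test, Benjamini-Hochberg adjustment over all genes tested, threshold 0.05), without covariates between genotypes and with mouse as a block for segments and for the difference between segments. SE is the log2 fold change divided by the square root of F. The 95% intervals reach 1.96 SE to either side, a normal quantile, and are narrower than the F test would give. CPM use TMM over all 27 libraries. Mouse was a block because the labels tie the libraries of both segments to one animal. Deviations from the group means had correlations between these segments of -0.03 to 0.40 in control and 0.06 to 0.35 in deficient mice. These ranges overlap the -0.13 to 0.21 of same-numbered mice of the 2 genotypes. Each replicate is a separate mouse. Alternatives used DESeq2 1.42.0, limma 3.58.1 on the deposited log2 matrices, effective length offsets, no low-count filter, other sets of mice and each mouse left out. The fits were also run on simulated counts that held no effect shared by the libraries of a mouse. Those runs therefore say nothing about the use of mouse as a block. Named are the members, Foxa1 and Foxa2, up to 3 genes of smallest adjusted p per list and genotype comparison, the extreme cell markers past the threshold, the other aquaporins, and the 3 genes most like each member by Pearson's r among named genes tested in both segments with a mean of at least 5 CPM. Named outside these rules are Spdef, Apob, Hbb-bt, Ddx3y, Epcam and Vil1, and Fabp2 in distal colon. Only those marker genes that bear on a member or on the salt transport genes are named, a shortening chosen after the values were seen. So were the choice of promoters shown and the single libraries pointed out. Levels over 18 months and by Cre were likewise set out after the values were seen. 1 gene list is not reported here.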

Additional observations from a re-analysis of the deposited data

Results flagged for a closer look

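Within groups of 6 or 7 libraries, the level of each member was checked for a library standing apart from the rest by more than Dixon's 95% critical value, 20 checks in all, where chance gives about 1 in 20. Deficient replicate 1 stood apart in distal colon for 2 members. Its Aqp3 level was 3.31 CPM, and the gap to the next library was 0.845 of the range of the group. Its Aqp8 level was 3624 CPM, with a gap of 0.652 of the range. Without this library the distal log2 fold change, deficient over control, was 1.06 for Aqp3 (adjusted p = 0.0355) and -0.51 for Aqp8 (adjusted p = 0.284). The same mouse had the highest proximal Aqp3 of the deficient mice, 11.1 CPM.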

How the results depend on the processing

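Aqp3 in proximal colon and Aqp4 in both segments kept direction and call under every alternative run, as did Aqp1, Aqp4, Aqp8 and Aqp11 between segments, except Aqp4 in deficient mice without replicates 3, 5 and 7 (1.47). That set of mice was chosen after seeing the data. The distal Aqp3 change (1.67) missed the threshold with no low-count filter (1.67), an effective length offset (1.47), controls without Cre (1.44), 9 to 13 months (1.63), mice labelled male (1.82) and without deficient replicates 3, 5 and 7 (2.00), and ranged from 1.06 to 1.83 with 1 mouse left out. It could not be fitted on the authors' distal matrix, which does not list Aqp3. Between segments of control mice, Aqp3 (-0.83) missed it with DESeq2 (-0.80), no filter (-0.84), the length offset (-0.63), no mouse block (-0.84) and controls without Cre (-0.83), and ranged from -1.06 to -0.74 with 1 mouse left out. Aqp1 in proximal colon passed with DESeq2 (-0.46) and ranged from -0.58 to -0.37 with 1 mouse left out.

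Changes of sign were seen in values near 0 that passed nowhere. Aqp1 in distal colon had -0.05 with controls without Cre, -0.10 at 9 to 13 months, -0.08 with limma on the authors' matrix, and -0.18 to 0.23 with 1 mouse left out. Aqp8 in distal colon had 0.01 at 9 to 13 months and 0.12 without deficient replicates 3, 5 and 7. Aqp11 ranged from -0.62 to -0.39 in distal colon and from -0.88 to -0.59 in the difference between segments with 1 mouse left out, and that difference passed with controls without Cre (-0.91). The difference for Aqp3 passed with DESeq2 (-1.71) and ranged from -1.95 to -1.46. Causes were not tested.

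Replicate numbers shared by deficient and control mice were not taken as pairs (correlations of deviations -0.13 to 0.21). With the number as a replicate block, Aqp1 in proximal colon passed (-0.48, adjusted p = 0.021), distal Aqp3 did not (1.43, adjusted p = 0.142), and 1696 proximal and 689 distal genes passed. Genes past the threshold numbered 973 in distal colon, 1504 with DESeq2 and 569 without deficient replicates 3, 5 and 7. For the difference between segments they numbered 178, 528 with DESeq2, 106 at 9 to 13 months, 70 without deficient replicates 3, 5 and 7, and 102 (without control replicate 2) to 225 with 1 mouse left out, and 110 without deficient replicate 3. Between segments of deficient mice they numbered 7445, and 4774 without deficient replicates 3, 5 and 7. In deficient distal colon Aqp4 and Aqp11 change places in the order by CPM. Low counts limit Aqp3 in distal colon and all aquaporins outside the 5.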
